A study of Mus musculus with 10 samples.

Results

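The liver genes described here are Abcg8, Abca5, Abcg2 and Npc2, which encode 3 transporters of the ATP-binding cassette (ABC) family and a lysosomal cholesterol-binding protein. They are 4 of the 5928 genes that the array names, and every probe set annotated to 1 of them alone was taken, which gave 4 of the 11868 probe sets tested, 1 for each gene. The 4 genes were selected on the measured differences between these same groups and by what they do, so their values are given as a description and carry no p-value.

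Affymetrix arrays (the mouse MG_U74Cv2 design) were used to measure liver RNA of male mice in 5 groups. Scap-/- mice (Scap-/-;MX1-Cre) lacked SCAP in the liver. At 10 to 12 weeks of age, they and the mice called Scap wild type here ate chow and had received 4 injections of poly(I:C), which switches on the Cre recombinase, the last of them 14 days before the livers were taken. TgSREBP-1a and TgSREBP-2 mice carried a transgene for the nuclear, transcriptionally active form of human SREBP-1a or SREBP-2, and they and their littermates, SREBP wild type, were aged 12 to 16 weeks and spent the last 2 weeks on food rich in protein and poor in carbohydrate. For each group the RNA of 5 mice was combined into 1 pool, and 20 µg was hybridised to each of 2 arrays, so each mean below is over n = 2 hybridisations and its spread holds no variation between mice. The MX1 promoter responds to interferon and is not specific to hepatocytes, and the labels do not name the promoter of the transgenes.

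Sterol regulatory element-binding proteins (SREBPs) are transcription factors that switch on cholesterol and fatty acid synthesis, and SCAP escorts their precursors to the Golgi, where they are cut to the nuclear form. Hepatocytes dispose of surplus cholesterol through the ABCG5/ABCG8 heterodimer of the canalicular membrane, which pumps sterols into bile and whose genes are known targets of the oxysterol receptor LXR. Inside the cell, NPC2 takes cholesterol released in the lysosome and hands it to the membrane protein NPC1, ABCA5 is an ABC transporter of late endosomes and lysosomes, and ABCG2 is a canalicular exporter of drugs, urate and other conjugates.

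Signals are on the log2 scale throughout, with array medians of 4.69 to 4.77 and correlations of 0.992 to 0.995 between duplicate arrays. SCAP and the human transgenes were not measured by the probe sets analysed here. Nsdhl, a sterol synthesis enzyme and SREBP target, is shown in their place. It was picked with earlier results of these data known, so it is no independent check of the labels. Its mean signal was 7.53 in Scap-/-, against 10.00 in Scap wild type, and 10.60 in TgSREBP-1a and 10.98 in TgSREBP-2 against 7.48 in SREBP wild type. The call rule given below was not passed by 9 of the 12 measured cholesterol synthesis genes in these comparisons. Of 10 hepatocyte markers, 1 was measured, Serpina1a, at a signal of 3.22 to 3.71, below the array medians, so this array gives little check of the tissue.

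Abcg8 had the largest range of the 4 genes. Its values rest on a single probe set of the _r_at kind, a suffix given where some of the manufacturer's rules for choosing probes were dropped, while those of the other genes are plain _at sets. Its signal was 8.97 and 9.01 in TgSREBP-1a, 9.91 and 9.35 in TgSREBP-2, and 7.61 and 7.68 in SREBP wild type (log2). All 4 transgenic arrays lay above both wild-type arrays, and both TgSREBP-2 arrays lay above both TgSREBP-1a arrays. The log2 difference from SREBP wild type was 1.35 (SE 0.155, 2.55-fold) in TgSREBP-1a, which placed it 19th from the highest among all probe sets, and 1.99 (SE 0.155, 3.97-fold) in TgSREBP-2, where it was 5th from the highest. These 2 comparisons share the wild-type arrays.

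After SCAP loss the signal of Abcg8 was 7.58 and 7.50 in Scap-/-, against 7.86 and 7.64 in Scap wild type. The arrays did not overlap, but the log2 difference was -0.21 (SE 0.155), 1.16-fold in size. Nsdhl, set beside it, differed by -2.47 (SE 0.279, adjusted p = 0.00623, limma) between the same pools, by 3.12 in TgSREBP-1a and by 3.50 in TgSREBP-2. The effect of the transgene minus that of SCAP loss on Abcg8 was 1.56 for TgSREBP-1a and 2.20 for TgSREBP-2 (log2, SE 0.219 each). In this contrast, here and for the other genes below, effects in opposite directions add up. Its size therefore does not tell which of the responses is larger. It also spans groups that differ in diet, age, poly(I:C) and study, and its SE holds technical spread only.

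Between the transgenics, Abcg8 averaged 8.99 ± 0.03 in TgSREBP-1a and 9.63 ± 0.39 in TgSREBP-2 (SD, n = 2), a log2 difference of -0.64 (SE 0.155). The size of that difference rested on the spread of the TgSREBP-2 arrays and was -0.36 without TgSREBP-2 replicate 1 and -0.92 without TgSREBP-2 replicate 2. In order of the group means, TgSREBP-2 and TgSREBP-1a came before Scap wild type, SREBP wild type and Scap-/-. The last 3 groups lay within 0.21 of each other, and the arrays of Scap wild type and SREBP wild type overlapped.

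**Figure D1:**
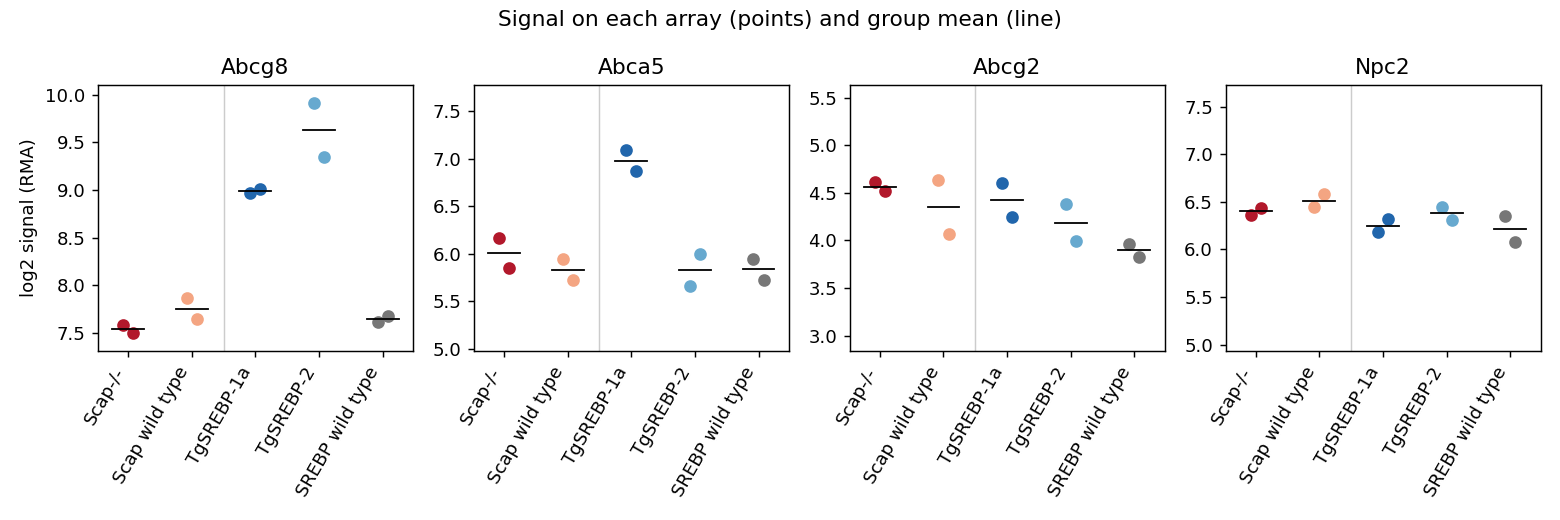
Log2 signal of each of the 10 arrays (points) and the mean of the 2 arrays of a group (line) for Abcg8, Abca5, Abcg2 and Npc2; the vertical span is the same in every panel and the grey line separates the Scap groups from the SREBP groups. Abcg8 is higher in both transgenics (means 8.99 and 9.63, against 7.64 in SREBP wild type) and Abca5 is highest in TgSREBP-1a (mean 6.98).

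Abcg8 lies on chromosome 17 beside Abcg5, the gene of its partner, and the RefSeq windows before the start sites of both genes overlap by 109 bases. The Abcg8 window of that overlap is shown here because it is the stretch of DNA before the gene with the widest range. The capitals mark CCAAT, a motif bound by the factor NF-Y, which is known to act together with SREBPs. Both copies lie outside the 109 bases shared with the Abcg5 window, which holds no CCAAT.
Abcg8, the 250 bases before the start next to Abcg5, plus strand, GRCm38.p6 chr17:84682871-84683120: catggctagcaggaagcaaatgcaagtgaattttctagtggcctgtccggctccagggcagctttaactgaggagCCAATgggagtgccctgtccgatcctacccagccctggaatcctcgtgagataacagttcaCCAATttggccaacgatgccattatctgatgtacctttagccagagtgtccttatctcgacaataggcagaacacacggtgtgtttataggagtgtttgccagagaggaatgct
Abca5, the 250 bases before its start, minus strand, with the GC box in capitals, GRCm38.p6 chr11:110337717-110337966: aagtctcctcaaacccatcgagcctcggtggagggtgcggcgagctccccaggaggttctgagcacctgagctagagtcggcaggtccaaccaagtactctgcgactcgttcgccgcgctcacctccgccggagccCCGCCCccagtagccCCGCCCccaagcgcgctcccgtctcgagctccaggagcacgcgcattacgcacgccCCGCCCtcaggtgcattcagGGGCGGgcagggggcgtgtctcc

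Both strands of all 32851 RefSeq windows of 250 bases were searched for 5 motifs: the sterol regulatory element as TCACNCCAC, the E-box CACGTG, the CCAAT box CCAAT, the GC box GGGCGG and the LXR-type direct repeat DR4. The Abcg8 window held CCAAT 2 times and none of the others, and a second RefSeq window of Abcg8 held none of the 5. CCAAT occurs in 33.8% of all windows. The Abca5 window, at 69.2% G and C against a median of 52.4%, held the GC box 4 times and none of the others, and 32.7% of all windows hold a GC box. None of the windows of the 4 genes held the sterol regulatory element (1.05% of all windows), the E-box (6.02%) or the LXR-type repeat (0.0152%) in these letters.

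Abca5 differed between the transgenics. Its signal was 7.09 and 6.87 in TgSREBP-1a, 5.66 and 6.00 in TgSREBP-2, and 5.95 and 5.72 in SREBP wild type. Both TgSREBP-1a arrays lay above all other arrays of the series, while those of TgSREBP-2 and SREBP wild type overlapped. The log2 difference was 1.14 (SE 0.155, 2.21-fold) for TgSREBP-1a against SREBP wild type, 26th from the highest of all probe sets, and -0.01 (SE 0.155) for TgSREBP-2 against SREBP wild type. Set against each other, TgSREBP-1a minus TgSREBP-2 gave 1.15 (SE 0.155), with 0.98 without TgSREBP-2 replicate 1 and 1.32 without TgSREBP-2 replicate 2.

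With SCAP loss, Abca5 was at 6.17 and 5.85 in Scap-/-, against 5.94 and 5.72 in Scap wild type, overlapping groups with a log2 difference of 0.19 (SE 0.155). The TgSREBP-1a effect minus the SCAP loss effect was 0.96 and the TgSREBP-2 effect minus it was -0.19 (SE 0.219 each). In order of the means TgSREBP-1a stood 0.97 above Scap-/-, and the 4 groups from Scap-/- down to Scap wild type each overlapped their neighbour in the order.

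Abcg2 gave a low signal on every array, 3.83 to 4.64, under the array medians. Calls of presence did not come with the values, so its differences are given without a fold. It was at 4.60 and 4.25 in TgSREBP-1a, 4.38 and 3.99 in TgSREBP-2, and 3.96 and 3.83 in SREBP wild type. Neither transgenic overlapped the wild type, though Abcg2 of TgSREBP-2 replicate 2 lay only just above it, and the transgenics overlapped each other. The log2 difference from SREBP wild type was 0.53 in TgSREBP-1a and 0.29 in TgSREBP-2 (SE 0.187 each). In Scap-/- it was at 4.61 and 4.52, against 4.64 and 4.07 in Scap wild type, a log2 difference of 0.21 (SE 0.187) that became 0.49 without Scap wild type replicate 1 and -0.08 without Scap wild type replicate 2. The transgene effect minus the SCAP loss effect was 0.32 for TgSREBP-1a and 0.08 for TgSREBP-2 (SE 0.264 each).

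Npc2 had the smallest range, its 5 group means spanning 0.30. Its signal was 6.18 and 6.32 in TgSREBP-1a, 6.45 and 6.31 in TgSREBP-2, and 6.35 and 6.08 in SREBP wild type, with overlap between all 3 groups. The log2 difference from SREBP wild type was 0.04 in TgSREBP-1a and 0.16 in TgSREBP-2 (SE 0.116 each), and the TgSREBP-1a difference was -0.10 without SREBP wild type replicate 2. In Scap-/- Npc2 was at 6.36 and 6.44, against 6.45 and 6.58 in Scap wild type, a log2 difference of -0.11 (SE 0.116). The TgSREBP-1a effect minus the SCAP loss effect was 0.15 and that of TgSREBP-2 was 0.27 (SE 0.164 each).

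**Figure D2:**
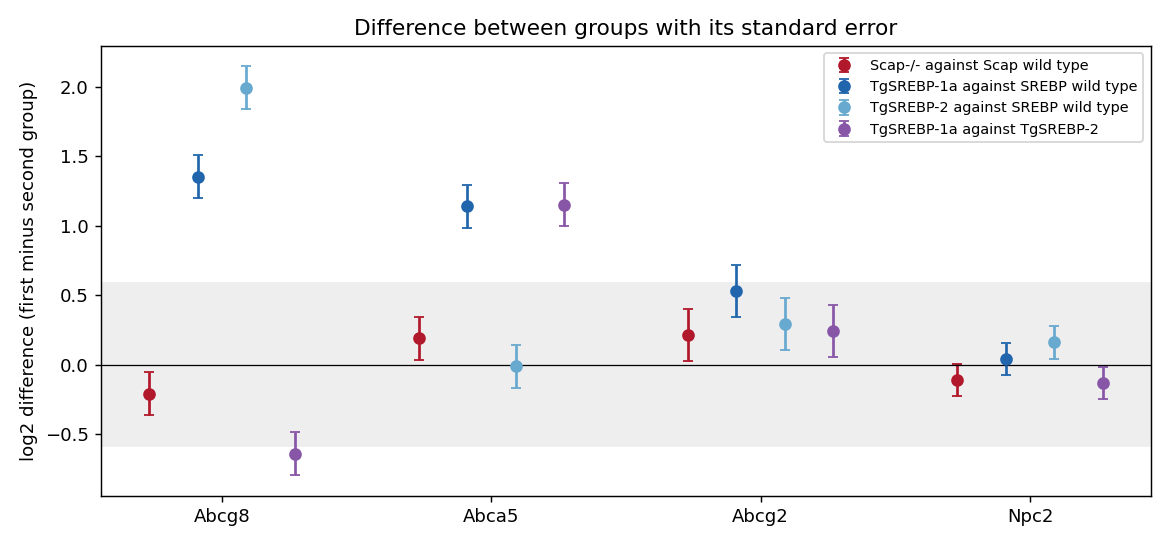
Log2 difference between groups (first named minus second; points) with its standard error from the limma fit (bars) for the 4 genes in 4 comparisons; the grey band marks differences under 1.5-fold. The transgenic points of Abcg8 (1.35 and 1.99) and the TgSREBP-1a point of Abca5 (1.14) lie above the band, as does Abca5 between the transgenics (1.15), while Abcg8 between the transgenics (-0.64) lies below it and all Scap-/- points lie within it.

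The wild-type pools of the Scap and SREBP groups were also set side by side. Scap wild type minus SREBP wild type was 0.11 for Abcg8 (SE 0.155), -0.01 for Abca5 (SE 0.155), 0.46 for Abcg2 (SE 0.187) and 0.30 for Npc2 (SE 0.116). Diet, age, poly(I:C) and study cannot be told apart here.

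Against the call rule used for all probe sets, a Benjamini-Hochberg adjusted p under 0.05 in limma with a difference of at least 1.5-fold, 2 of the 4 genes lay past it in TgSREBP-1a against SREBP wild type (Abcg8 and Abca5), where 1.04% of all probe sets did. In TgSREBP-2 against SREBP wild type 1 of the 4 did (Abcg8), against 0.118%, in TgSREBP-1a against TgSREBP-2 1 did (Abca5), against 0.514%, and in Scap-/- against Scap wild type none did, against 0.0843%. The arrays of the groups lay apart for 3, 2, 2 and 2 of the 4 genes in the same order of comparisons, against 39.4%, 35.0%, 37.0% and 29.7% of all probe sets. The median log2 difference of the 4 was 0.83 in TgSREBP-1a, 0.23 in TgSREBP-2, 0.05 between the transgenics and 0.04 in Scap-/-, beside -0.029, -0.008, -0.021 and 0.001 over all probe sets. Nothing is read from these counts and medians, since the 4 genes were picked on the same comparisons. Abca5 was no longer past the rule against SREBP wild type without TgSREBP-1a replicate 1, nor between the transgenics without TgSREBP-1a replicate 1 or TgSREBP-2 replicate 1, and Abcg8 passed it between the transgenics without TgSREBP-2 replicate 2.

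Of 12 other measured ABC genes, none was called by limma in any of the 4 comparisons. At an unadjusted p under 0.05 there were 2 in TgSREBP-1a against SREBP wild type, 0 in TgSREBP-2 against SREBP wild type, 3 between the transgenics and 1 in Scap-/- against Scap wild type. The median difference of the family was -0.06 in TgSREBP-1a, 0.04 in TgSREBP-2 and 0.02 in Scap-/-, beside -0.029, -0.008 and 0.001 over all probe sets. The largest differences were those of Abca6, a gene next to Abca5, in TgSREBP-1a (0.43, adjusted p = 0.398), Abcc5, an exporter of cyclic nucleotides, in TgSREBP-2 (-0.21, adjusted p = 0.884), Abcg3 between the transgenics (-0.27, adjusted p = 0.55) and Abcf1, an ABC protein of translation with no transport role, in Scap-/- (0.24, adjusted p = 0.999). Other probe sets of Abcc5 gave 0.02 and 0.11 in TgSREBP-2, opposite in sign to the one used.

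Genes of sterol transport and its control, bile acids and cholesterol synthesis were sparsely covered, with 27 of 129 listed genes measured besides the 4. Of the 27, 12 belong to cholesterol synthesis. In Scap-/- 3 of the 27 fell and none rose, in each transgenic 3 rose and none fell, and between the transgenics none was called in limma (4 at an unadjusted p under 0.05). All 3 called genes were enzymes of cholesterol synthesis, Nsdhl, the mevalonate pathway kinase Pmvk and the sterol reductase Tm7sf2, out of 12 measured in that list. Tm7sf2, for instance, differed by 1.45 (adjusted p = 0.0104) in TgSREBP-1a and by 2.27 (adjusted p = 0.00151) in TgSREBP-2 and by -1.83 (adjusted p = 0.00963) in Scap-/-, all by limma. Between the transgenics Tm7sf2 had the largest difference of that list, -0.81 (adjusted p = 0.28). A second probe set of Pmvk gave 0.03 in TgSREBP-1a, 0.14 in TgSREBP-2 and -0.04 in Scap-/-, beside 2.93, 3.05 and -1.73 at the one used. Without Scap wild type replicate 1, 1 gene of the lists was called in Scap-/-, and Nsdhl lost its call there, as it also did when the 4 Scap arrays were fitted alone. Tm7sf2 lost its call in Scap-/- without Scap-/- replicate 2 or either Scap wild type array, and in TgSREBP-1a without either TgSREBP-1a array or SREBP wild type replicate 2.

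None of the 6 measured genes of lysosomal sterol handling was called by limma in any comparison, while 2 had an unadjusted p under 0.05 in Scap-/-, 1 in TgSREBP-1a, and 0 in TgSREBP-2 and between the transgenics. Their medians were 0.16 in TgSREBP-1a, -0.05 in TgSREBP-2 and 0.12 in Scap-/-. The largest differences were those of Lamp2, a lysosomal membrane protein, at 0.30 in TgSREBP-1a, -0.22 in TgSREBP-2 and 0.52 between the transgenics, and of the oxysterol-binding protein gene Osbpl8 at 0.59 in Scap-/- (adjusted p = 0.999). A second probe set of Lamp2 gave 0.20 in TgSREBP-1a, 0.06 in TgSREBP-2 and 0.14 between the transgenics, so the 2 had opposite signs in TgSREBP-2, and a second one of Osbpl8 gave -0.08 in Scap-/-. Of 29 LXR targets and nuclear receptors 5 were measured and none called. Apoe was the only LXR target among the 5, so the list says little about such targets. It was at -0.20 in TgSREBP-1a (adjusted p = 0.59, limma), -0.22 in TgSREBP-2 (adjusted p = 0.785) and -0.12 in Scap-/-, with arrays apart in each. Of the receptors, Nr1i2, the xenobiotic receptor PXR, was at 0.32 in TgSREBP-1a and 0.24 in TgSREBP-2. Hnf4g was at 0.19 between the transgenics and Rxra, the partner receptor of LXR, at -0.47 in Scap-/-. In the sparsest lists none was called either: the sterol transfer protein gene Stard4 was at 0.18 in TgSREBP-1a, 0.17 in TgSREBP-2 and -0.27 in Scap-/-, and Mbtps1, a protease that cuts SREBPs, at -0.09 between the transgenics. The organic solute exporter gene Slc51a lay between -0.10 and 0.09 in the 4 comparisons, and the cholesterol hydroxylase Cyp46a1 between -0.52 and 0.35.

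The neighbours of the 4 genes on the chromosome were set beside them, 4 protein-coding genes on each side in the order of RefSeq GRCm38.p6, a choice made after the values of the 4 genes were seen. Of the 8 neighbours of Abcg8 on chromosome 17, 3 were measured and 1 was called. Slc3a1, which encodes a subunit of an amino acid transporter and lies 3 genes from Abcg8, had a signal of 7.73 and 7.77 in TgSREBP-2, against 6.44 and 6.07 in SREBP wild type, and rose (log2 difference 1.49, SE 0.185, adjusted p = 0.00771, limma). In TgSREBP-1a Slc3a1 was at 6.16 and 6.02 and did not pass (-0.17, adjusted p = 0.865), and TgSREBP-1a was lower than TgSREBP-2 by a log2 difference of -1.66 (adjusted p = 0.00137). With SCAP loss Slc3a1 differed by -0.49 (adjusted p = 0.999, limma) and was not called, though the arrays did not overlap. Its call in TgSREBP-2 against SREBP wild type was lost when any 1 of 3 arrays was left out, both of TgSREBP-2 and replicate 2 of SREBP wild type, and that difference lay between 1.31 and 1.68 over such omissions. Ppm1b, a protein phosphatase gene that lies between them, was at 0.45 in TgSREBP-1a and 0.33 in TgSREBP-2 with adjusted p-values of 0.49 and 0.847, and Thada, on the other side, at -0.36 and -0.13. Other probe sets of Ppm1b gave 0.07 and 0.02 in TgSREBP-1a and -0.10 and 0.06 in TgSREBP-2.

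Abca5 closes a run of related genes on chromosome 11, of which Abca6, Abca9 and Abca8b were measured. In TgSREBP-1a, where Abca5 was at 1.14, Abca6 was at 0.43, Abca9 at -0.04 and Abca8b at -0.08, none of them called. Kcnj2, on the other side of Abca5, was at -0.06. Abcg2, on chromosome 6, had 1 measured neighbour, Fam13a, at -0.05 in TgSREBP-1a, and Npc2, on chromosome 12, had none.

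**Figure D3:**
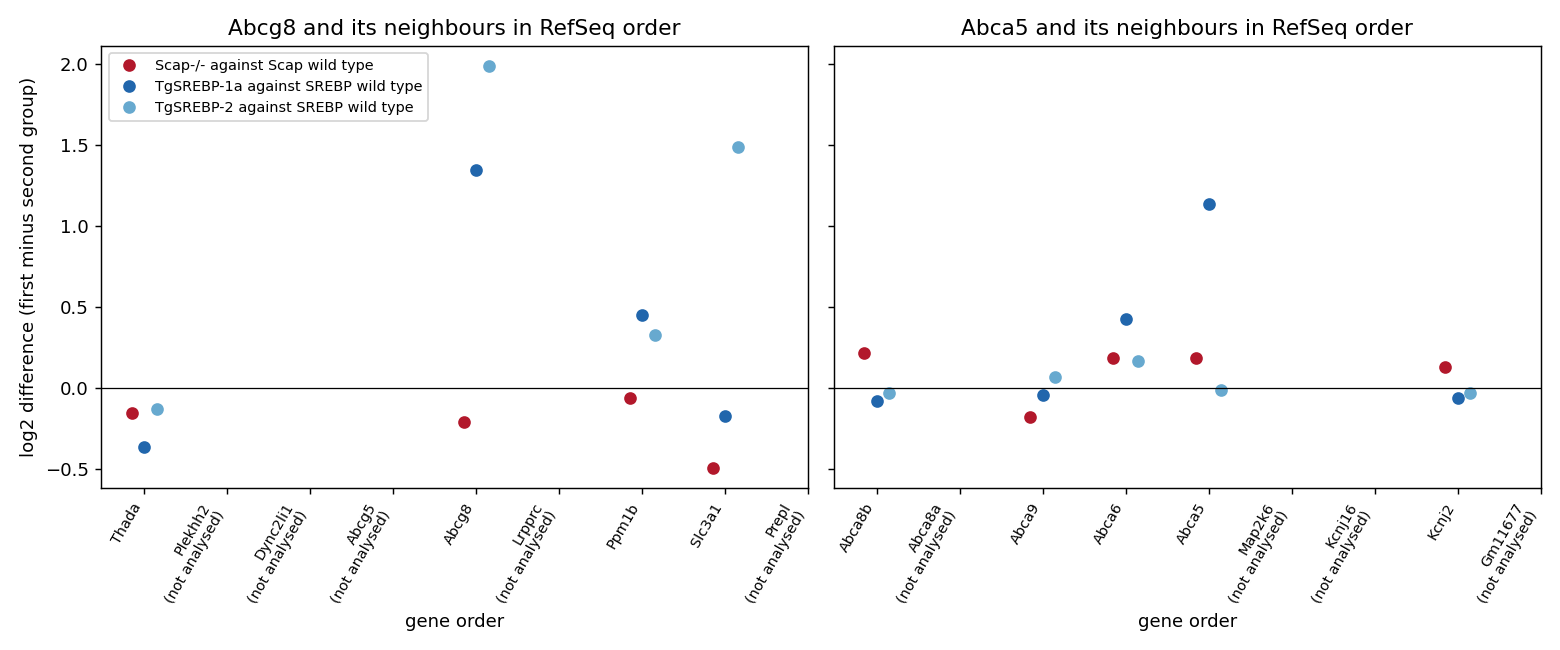
Log2 difference (first named group minus second) of Abcg8 (left) and Abca5 (right) and of the 4 protein-coding genes on each side of each, in RefSeq order, for 3 comparisons; genes without points were not analysed. Beside Abcg8, Slc3a1 is high in TgSREBP-2 (1.49) and not in TgSREBP-1a (-0.17), and beside Abca5 its relatives lie between -0.18 and 0.43.

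Likeness to Abcg8 and Abca5, whose group means spanned 2.09 and 1.15, was measured as the root mean square difference of the 5 group means, each gene centred on its own mean, over 6849 named probe sets. Closest to Abcg8 was Cyp51, lanosterol demethylase of cholesterol synthesis (0.407), followed by the kinase Sik1 (0.427), the thiamine transporter gene Slc19a2 (0.448), the lipopolysaccharide-binding protein gene Lbp (0.452) and Ipmk, an inositol phosphate kinase (0.492). A second probe set of Ipmk differed by 0.11 in TgSREBP-2 and -0.05 in TgSREBP-1a. Cyp51 averaged 5.45 in TgSREBP-1a and 5.90 in TgSREBP-2, against 4.76 in SREBP wild type, and 4.70 in Scap-/-, against 5.02 in Scap wild type. None of these Cyp51 differences was called by limma (adjusted p = 0.163, 0.0575 and 0.999, in that order). No probe set came as near to Abcg8 as the first 5 did to Abca5. The distance was not scaled to the span of the means, which was wider for Abcg8, so the distances of these genes are not directly comparable. A gene with the same pattern at a smaller size also counts as far by this measure.

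Closest to Abca5 were probe sets of Gramd3 (0.078), Hephl1 (0.081), Ip6k2 (0.106), the matrix protein gene Smoc2 (0.12) and Ip6k2 again (0.14). Ip6k2, an inositol hexakisphosphate kinase, averaged 6.59 in TgSREBP-1a, 5.58 in TgSREBP-2 and 5.58 in SREBP wild type at the nearer of these probe sets. The other 4 of the 6 probe sets of Ip6k2 lay between -0.11 and 0.42 in TgSREBP-1a. The signals of Gramd3, Hephl1 and Smoc2 were low, with group means of 3.06 to 4.95.

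**Figure D4:**
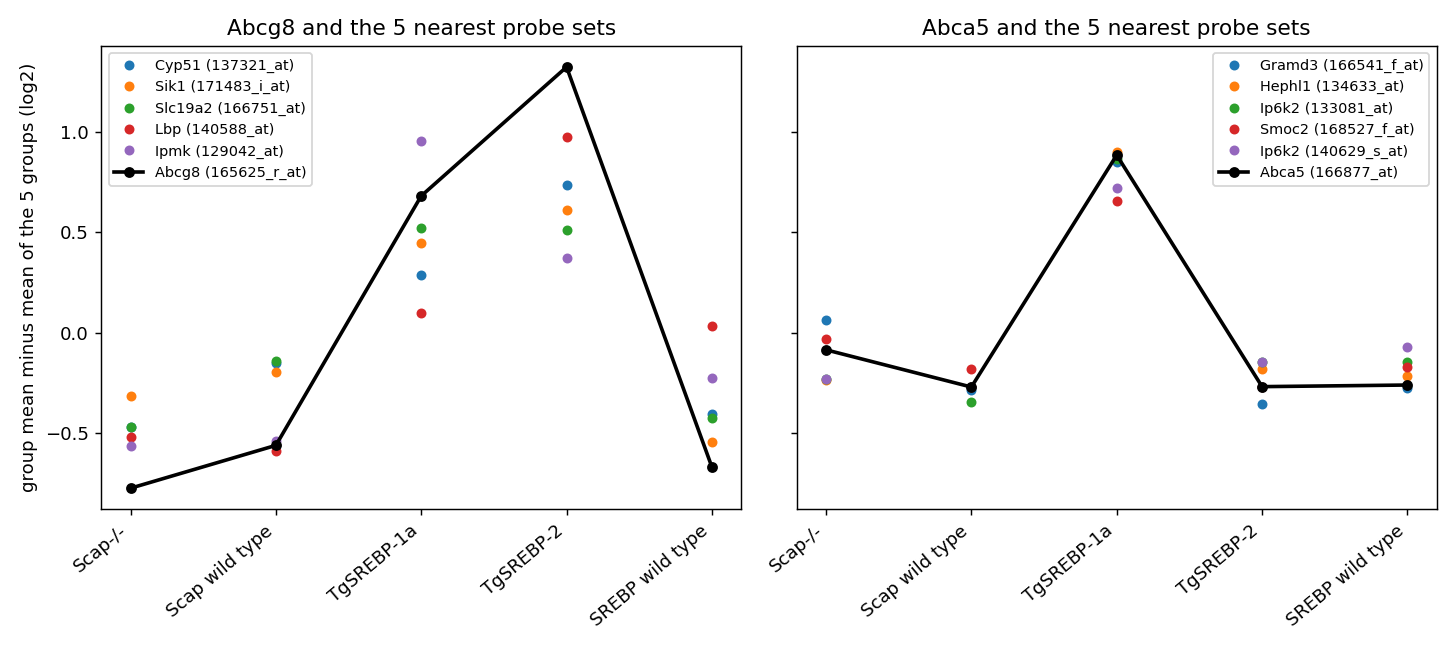
Group means minus the mean of the 5 groups (log2) for Abcg8 (left, line) and Abca5 (right, line) and the 5 probe sets whose pattern lay nearest (points). Points lie close to the line for Abca5 (root mean square difference 0.078 to 0.14) and farther from it for Abcg8 (0.407 to 0.492), whose means span a wider range. The distance was not scaled to that range.

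Markers of other cells moved in the same comparisons. Of 14 macrophage and Kupffer cell markers 3 were measured, and in TgSREBP-1a, where Abcg8 and Abca5 were high, 2 of them rose, the complement receptor Vsig4 (1.14, adjusted p = 0.0185) and Laptm5 (1.05, adjusted p = 0.00538). In TgSREBP-2 they were at 0.74 and 0.54 and did not pass. The remaining marker, C1qc, was at 0.17 in TgSREBP-1a (adjusted p = 0.648, limma) and 0.22 in TgSREBP-2 (adjusted p = 0.783). Between the transgenics C1qc was at -0.05, beside 0.40 for Vsig4 and 0.51 for Laptm5, none of them called. The mean of the 3 lay between 8.16 and 8.20 on the TgSREBP-1a arrays and 7.82 and 7.97 on those of TgSREBP-2, against 7.23 and 7.57 in SREBP wild type. The call of Vsig4 was lost without either TgSREBP-1a array, that of Laptm5 without replicate 1 of TgSREBP-1a, and both without replicate 2 of SREBP wild type. Of 12 pancreatic acinar markers 5 were measured, of which 3 fell in TgSREBP-1a, 2 rose in TgSREBP-2 and 2 fell in Scap-/-, and their mean was 4.32 to 4.40 in TgSREBP-1a and 6.30 to 6.54 in TgSREBP-2, against 5.59 to 5.92 in SREBP wild type, and 4.26 to 4.38 in Scap-/-, against 5.23 to 5.37 in Scap wild type. Of these calls, that of Cuzd1 in TgSREBP-1a was lost when any 1 of the 4 arrays compared was left out, and that of Gp2 in TgSREBP-2 without any of the 4 transgenic arrays or replicate 2 of SREBP wild type. Gp2 also lost its call in Scap-/- without Scap-/- replicate 2, without replicate 1 of Scap wild type, or with the Scap arrays fitted alone.

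Of 8 bile duct cell markers 3 were measured, and Epcam, an epithelial adhesion molecule, fell in TgSREBP-1a (-0.63, adjusted p = 0.00538, limma), a call lost without TgSREBP-1a replicate 1. In TgSREBP-2 it was at -0.54 (adjusted p = 0.0587), and the other probe sets of Epcam gave 0.05 and 0.01 in TgSREBP-1a. The other 2 markers were not called. Sox9 was at 0.24 in TgSREBP-1a and 0.18 in TgSREBP-2, and Cldn7 at 0.10 and -0.03. Further probe sets gave -0.34 and -0.02 for Sox9 and -0.03 for Cldn7 in TgSREBP-1a. The hepatocyte marker Serpina1a was at -0.34 (adjusted p = 0.268) in TgSREBP-1a, -0.27 (adjusted p = 0.777) in TgSREBP-2 and -0.05 in Scap-/-. The part of these cells in the values of the 4 genes was not tested. In pooled tissue RNA, more cells of a type and more RNA per cell cannot be told apart.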

How the data were processed

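The deposited values are log2 signals per probe set, made by the authors with RMA, per the submitters' processing notes with no version, while Microarray Suite 5.0 is named in the design text. The log2 scale was taken from the range of the values, and no further transformation was made. Of 11934 probe sets, 66 control probe sets were left out. Of the rest 7717 carry a single gene name in GEO's platform annotation. All 4 genes described matched mouse RefSeq (GRCm38.p6), the source of the promoter sequences and gene order. Where a gene has several probe sets, that with the highest mean stands for it.

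The model was limma 3.58.1 (R 4.3.3), 1 fit of all 10 arrays and 5 groups, two-sided, with Benjamini-Hochberg adjustment over all 11868 probe sets. A call needed an adjusted p under 0.05 and a 1.5-fold difference. Each pool was hybridised 2 times, so the p-values hold technical spread only. The procedure was tested on simulated data.

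The 4 genes and the gene lists were chosen with earlier results of these data known. Named by rule were the 4 genes, called genes of the pathway lists, the largest difference of each such list and comparison, and for genes whose means span at least 1 log2 unit the 5 nearest probe sets with a gene name, leaving out clone and predicted names. Genes named beyond the rule (the neighbours, and which cell markers to name) were chosen after their values were seen.

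Alternatives were other normalisations, an 18S rRNA covariate, a replicate block, arrays of 1 study alone, other filters, variance models and thresholds, and leaving out each array.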

Additional observations from a re-analysis of the deposited data

Results flagged for a closer look

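The lists and neighbours held 4 genes, beside those described, that were called between TgSREBP-1a and TgSREBP-2. In them the effects of the transgenes against the shared wild type differed by the limma test of that difference. Over all 11868 probe sets, 61 (0.514%) were called in that comparison. Slc3a1, the neighbour of Abcg8, differed by -1.66 (log2, TgSREBP-1a minus TgSREBP-2, adjusted p = 0.00137). The acinar transcripts Cpa1, Gp2 and Cuzd1 differed by -5.18, -2.56 and -1.78. No group has enough arrays to ask whether 1 of them stands apart.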

How the results depend on the processing

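Of 256 values of the 4 genes under the alternatives, 128 could not differ from the reported one by construction (an array of another group left out, the replicate block, the same study alone). Of the other 128, 108 stayed within 1 SD of the reported value and 20 moved further, all 20 on leaving out 1 array. No difference past the call rule changed sign. On leaving out each array in turn, Abcg8 ranged from 1.31 to 1.38 in TgSREBP-1a, 1.71 to 2.27 in TgSREBP-2, -0.92 to -0.36 between the transgenics and -0.32 to -0.10 in Scap-/-. Abca5 ranged from 1.03 to 1.26, -0.18 to 0.17, 0.98 to 1.32 and 0.02 to 0.35 in the same comparisons, Abcg2 from 0.35 to 0.70, 0.10 to 0.48, 0.04 to 0.43 and -0.08 to 0.49, and Npc2 from -0.10 to 0.17, 0.03 to 0.29, -0.20 to -0.05 and -0.18 to -0.04. The count of called list genes, reported as 3 in TgSREBP-1a, 3 in TgSREBP-2, 0 between the transgenics and 3 in Scap-/-, ranged on leaving out an array from 2 to 4, 3 to 4, 0 to 0 and 1 to 3. When only probe sets ending in plain _at were kept, the count was 0 in TgSREBP-1a, 1 in TgSREBP-2 and 0 in Scap-/-, since the probe sets of Nsdhl, Pmvk and Tm7sf2 carry other suffixes and were left out by construction, as the only probe set of Abcg8 also would be. Between the transgenics it was 1 with the 18S rRNA covariate and 1 with the replicate block. Both of these settings gave 4 in TgSREBP-2, and the cause was not tested. The replicate block cannot move a difference here, and the labels do not say what the numbers share. Same-numbered arrays deviated together in 7 of 10 pairs of groups (correlations of 0.204 to 0.332) and oppositely in 3, each with TgSREBP-2 (-0.175 to -0.114), so the numbers were not taken to pair the arrays, though 18S rRNA signal was higher in replicate 2 of all 5 groups. Crossing the numbers of TgSREBP-2, chosen after the data were seen, gave 78 called probe sets between the transgenics, against 96 with the block as numbered and 61 with none. Over all probe sets the called count was 123 in TgSREBP-1a (40 to 186 under the alternatives), 14 in TgSREBP-2 (4 to 37), 61 between the transgenics (23 to 96) and 10 in Scap-/- (3 to 19), the highest of each with the replicate block. A mean over several probe sets of a gene was not run, since each of the 4 genes has 1. The deposited values give no signal over background, which limits Abcg2 most.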
